A study of Mus musculus with 27 samples.

Results

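Lin28bTg CD8 T cells were compared with Let-7Tg CD8 T cells after 12 h of activation, the pair of genotypes that lie on opposite sides of WT in let-7 microRNA. The comparison uses 6 of the 27 libraries of the study, 3 Lin28bTg and 3 Let-7Tg libraries chosen by their labelled genotype and time, and all 12239 genes that passed the filter on low values. The 3 WT libraries of the same time serve as the reference level, and they enter the fit that estimates the spread. The other libraries are naive cells and day 5 cytotoxic T lymphocytes (CTLs) of the same 3 genotypes.

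All 9 libraries of the 12 h time came from T cells labelled as lymph node cells. The cells carried the P14 T cell receptor transgene, and the study's methods give lymph nodes and spleens as the source. Every culture, WT included, was stimulated for 12 h with anti-CD3 antibody (2 μg/mL) and anti-CD28 antibody (5 μg/mL) in medium with 2 μg/mL doxycycline, and mice of all genotypes also drank doxycycline beforehand. By the methods, P14+ Lin28bTg and P14+ Let-7Tg mice were on a Rag2-/- background, and young adult mice of both sexes were used. The let-7 transgene encodes let-7g, is switched on by doxycycline and sits in the Col1a1 locus. The promoter that drives the Lin28b transgene, the background of the WT mice and the sex of the mice behind each library are not given in the sources used here. The methods describe the replicates as biological, but the labels do not tie them to single animals, so p-values measure the spread between these libraries.

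let-7 microRNAs are short RNAs that guide Argonaute proteins to matching sites in messenger RNAs, most often in the 3′ UTR, and lower the stability or translation of those messages. Lin28b binds let-7 precursors and blocks their maturation, so that cells with Lin28b hold little mature let-7. In naive T cells let-7 is abundant and falls after T cell receptor stimulation, and its known targets include regulators of the cell cycle. After stimulation a CD8 T cell first grows, then replicates DNA, and switches on cytokines and the granule proteins used to kill target cells.

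The sequences below carry the comparison. Bases 2 to 8 of a microRNA are its seed, printed in capitals, and let-7g, the transgenic member, shares this seed with let-7a, let-7i and miR-98 but not with let-7j, whose seed differs. Sequences and positions are from RefSeq on GRCm38.p6.
let-7g-5p: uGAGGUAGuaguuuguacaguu
let-7a-5p: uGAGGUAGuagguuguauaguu
let-7i-5p: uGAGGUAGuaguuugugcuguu
miR-98-5p: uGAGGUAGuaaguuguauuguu
let-7j: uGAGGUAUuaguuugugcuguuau

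A site that pairs with this seed reads CTACCTC in the message, and an A after it makes the 8-base site CTACCTCA. The letters TACCTCA, without the leading C, were also counted as a 7-base site. Each gene was searched on its own strand, over the 3′ UTR of the transcript with the longest coding part in GENCODE M21. The stretches below hold the 8-base or 7-base site of genes described further on, with the pairing letters in capitals. They are shown because the levels of these genes are described beside their sites.
Cdc34, chr10:79688116-79688145, plus strand: caggcgacagaCTACCTCAccgaggttcca
Arid3a, chr10:79953899-79953928, plus strand: caagtttctttCTACCTCAggtcttttgat
Rrm2, chr12:24713351-24713380, plus strand: aagctgtgtagCTACCTCAgtcctgtttgc
Bcl2l1, chr2:152781180-152781209, minus strand: caggggcttccCTACCTCAggcaggaaggg
Il13, chr11:53631598-53631627, minus strand: acataactctgCTACCTCActgtagcctcc
Ccr7, chr11:99144774-99144803, minus strand: cccacttataaCTACCTCAaccaaagctgt
Fas, chr19:34327325-34327346, plus strand: aaaCTACCTCAgttccagccat
Nr6a1, chr2:38727438-38727467, minus strand: gacaaagacaaCTACCTCAatggaaacagg
Trim71, chr9:114512461-114512490, minus strand: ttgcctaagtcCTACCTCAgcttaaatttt
E2f2, chr4:136193043-136193072, plus strand: cctgcatctgtCTACCTCctcacagacaga
Arid3b, chr9:57790356-57790379, minus strand: tcaataaagctCTACCTCttcaca
Ezh2, chr6:47530516-47530540, minus strand: catctaCTACCTCttccccttctct
Tarbp2, chr15:102523433-102523462, plus strand: aggtgccatctCTACCTCtgacacagcctg

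Levels are in FPKM, read counts scaled by gene length and by library depth. The 12 h libraries held between 14102910 and 17149842 counted reads. A 2 kb gene with 10 reads then has a level of 0.292 to 0.355 FPKM, so lower levels rest on few reads. Library 1 of Lin28bTg, library 2 of Let-7Tg and library 2 of WT stood apart from the other libraries of their genotype on the second principal component, which held 17.4% of the variance. The first component held 55.7% and separated the genotypes, with WT between Lin28bTg and Let-7Tg. A Lin28bTg and a Let-7Tg library were on average 71.7 units apart (range 64.6 to 79.4), against 31.8 between Lin28bTg libraries and 41.6 between Let-7Tg libraries.

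Levels of Lin28b and Col1a1 separated the transgenic genotypes in the direction of their labels. The let-7g transgene was seen only through its Col1a1 locus, since its gene, Mirlet7g, was not among the genes measured. Lin28b (ENSMUSG00000063804, chromosome 10) stood at 12.6, 10.2 and 9.94 FPKM in the Lin28bTg libraries and at 0.035, 0.0121 and 0.0115 FPKM in the Let-7Tg libraries, which are 3, 1 and 1 reads. Its log2 fold change, Lin28bTg over Let-7Tg, was 4.45 ± 0.13 (SE; limma, adjusted p = 3.32e-07), a value that depends on the 0.5 FPKM added before taking logs. Col1a1, the locus of the let-7g transgene (ENSMUSG00000001506, chromosome 11, 94936224 to 94953042), stood at 0.214, 0.133 and 0.0327 FPKM in Lin28bTg and at 21.5, 62.8 and 37.7 FPKM in Let-7Tg cells. Its level fell by 5.91 on the log2 scale (SE 0.30, adjusted p = 1.32e-05), and WT cells held 0.0716 to 0.101 FPKM. Mature let-7 itself was not measured by these libraries.

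Of the 12239 genes tested, 3775 differed between Lin28bTg and Let-7Tg cells (30.8%; limma on log2(FPKM + 0.5), Benjamini-Hochberg adjusted p under 0.05). Of these, 1996 were higher in Lin28bTg cells (16.3% of the genes tested) and 1779 were lower (14.5%). The counts of called list members given below are to be read against these shares. The higher genes moved further. Their median log2 fold change was 0.675, against −0.487 for the lower genes, and 644 were higher by 2-fold or more while 161 were lower by that much. The median over all tested genes was −0.0151. The values of the 3 libraries did not overlap between the genotypes in 5664 genes, or 46.3% of those tested, and this holds for 3693 of the called genes. The count fell to 2265 without library 2 of Lin28bTg and to 2362 without its library 3, and it was 3603 without the 3 libraries that stood apart, a choice made after seeing the data.

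The same fit called 1038 genes between Lin28bTg and WT cells (8.48% of those tested) and 396 between Let-7Tg and WT cells (3.24%). These comparisons share their WT libraries, and each transgenic group also enters the comparison described here. For some single genes the WT level is given beside the other 2 below, and WT did not lie between them in every gene. Of the 235 tested genes within 10 Mb of Col1a1, 33.6% were called, against 30.8% of all.

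**Figure D1:**
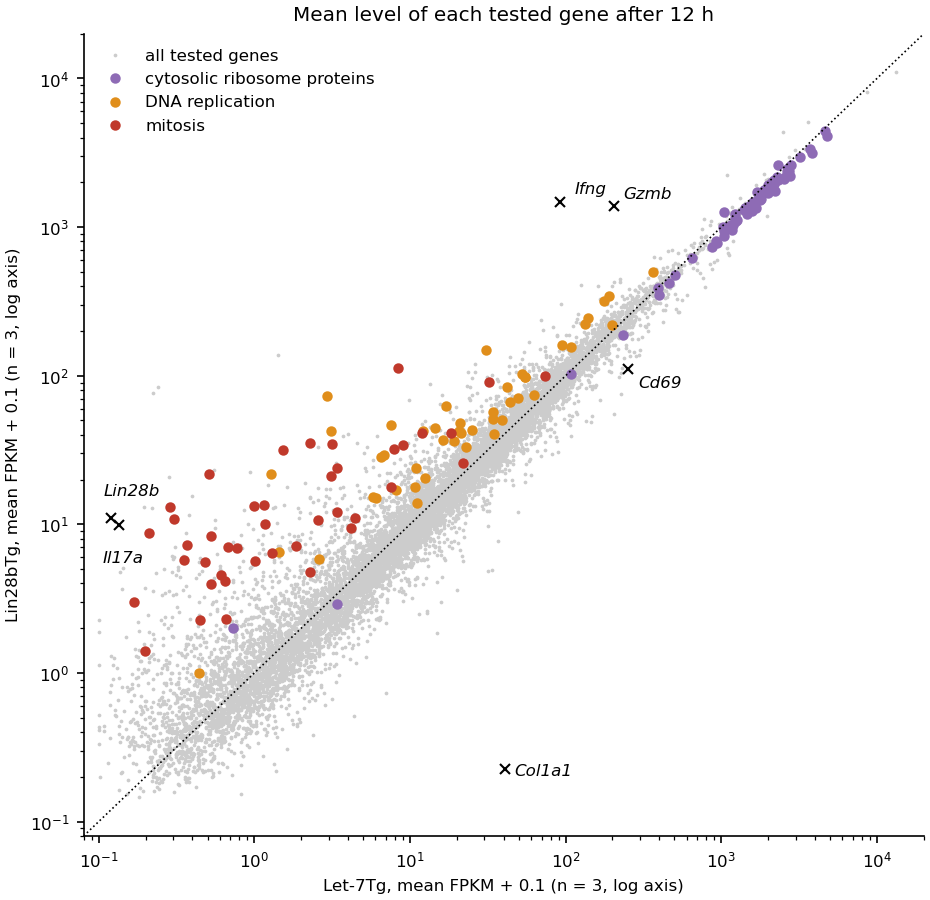
Mean level of each tested gene after 12 h in Let-7Tg cells (horizontal) and Lin28bTg cells (vertical), both as mean FPKM + 0.1 of 3 libraries on log axes. The dotted line marks equal levels. The mitosis genes (red) and DNA replication genes (orange) lie above it, the 78 tested ribosomal proteins (purple) lie close to it, and Col1a1 lies far below it.

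Markers of other cells were measured beside these counts. The summed level of the 12 genes of the CD8 T cell identity list ranged from 2940 to 3480 FPKM in Lin28bTg and from 3590 to 4050 FPKM in Let-7Tg libraries. Both genotypes thus carried the marks of T cells at high level. The list holds genes of the T cell receptor complex besides the CD8 chain genes Cd8a and Cd8b1. Neither Cd8a nor Cd8b1 was called (limma, log2 fold change 0.20 and −0.06, adjusted p = 0.366 and 0.783). The 5 erythroid markers summed to between 60.2 and 527 FPKM in Lin28bTg, to between 0.774 and 4.1 FPKM in Let-7Tg and to between 19.7 and 81.3 FPKM in WT libraries. Hba-a1, an alpha globin, stood at 185, 40.8 and 25 FPKM in Lin28bTg and at 0.211, 0.11 and 0.104 FPKM in Let-7Tg libraries, with 6.53, 23.5 and 9.51 FPKM in WT. The highest value was in the Lin28bTg library that stood apart. Hba-a2 and Hbb-bs moved with it, and the calls of these 3 globins were lost when precision weights from the read counts (voom) were used. Another globin, Hbb-bt, had 330, 68 and 34 reads in Lin28bTg against 4, 0 and 0 reads in Let-7Tg libraries. It was called higher (limma, log2 fold change 3.83 ± 0.72, adjusted p = 0.0042) and kept its call with voom. Globin genes are near copies of each other, so reads may be split between them.

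The 5 dendritic cell markers summed to 9.04 to 11.8 FPKM in Lin28bTg and 1.86 to 5.62 FPKM in Let-7Tg libraries, and the 9 myeloid markers to 9.4 to 19.2 and 5.64 to 10.9 FPKM. B cell markers reached 83.6 to 108 against 39.1 to 80.7 FPKM, and 88.4 to 106 FPKM in WT libraries. Most of this sum was Ighm alone, at 104.5, 99.4 and 80.9 FPKM in Lin28bTg against 79.2, 37.3 and 59.4 FPKM in Let-7Tg libraries. Pax5 and Cd22 were at 0 in every Let-7Tg library and Ms4a1 at 0 in every Lin28bTg library. Natural killer cell markers reached 34.8 to 45.9 against 10.7 to 34 FPKM and CD4 T cell markers 6.78 to 8.2 against 4.88 to 7.51 FPKM. Most of the natural killer sum was Eomes alone, at 38.5, 36.4 and 31.1 FPKM against 28.9, 17.4 and 8 FPKM. Eomes is also described below as a factor of effector and memory cells, so this sum is no measure of natural killer cells. Platelet markers were at 2.25 to 2.76 against 2.7 to 3.98 FPKM, and stromal and endothelial markers at 3.41 to 6.28 against 6.21 to 10.1 FPKM. Of these lists, 4 of 7 tested myeloid, 3 of 4 erythroid, 2 of 5 dendritic, 2 of 3 B cell and 1 of 4 CD4 markers were called higher in Lin28bTg cells. None of the 5 natural killer markers and neither of the single stromal and platelet genes tested was called. The part of such cells in the results below was not tested. In bulk RNA, fewer cells of a type and less RNA per cell cannot be told apart.

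Genes of cell division formed the most uniform group. Of the 42 tested genes of the mitosis list, 41 were higher in Lin28bTg cells and none was lower, with a median log2 fold change of 2.25 against −0.0151 over all tested genes. The exception, Cenpa, the histone variant of centromeres, stood at 21.6 to 29.3 FPKM in Lin28bTg and at 19.8 to 23.8 FPKM in Let-7Tg cells (log2 fold change 0.24, adjusted p = 0.30). It was named after its value was seen. In a fit over all 27 libraries the median of the mitosis list was 2.49 in naive cells and −0.214 in day 5 CTLs. The medians over all tested genes were −0.0443 and 0.0256. The gap in the mitosis list was thus present in naive cells and not in CTLs.

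Ccna2, the cyclin of S phase and mitotic entry (chromosome 3, 36564865 to 36572150), stood at 14.7, 25.8 and 24.9 FPKM in Lin28bTg cells and at 0.427, 0.606 and 0.191 FPKM in Let-7Tg cells. Every Lin28bTg library lay far above every Let-7Tg library, and WT cells lay between at 1.66, 1.73 and 2.71 FPKM. Its log2 fold change was 4.61 ± 0.26 (SE, adjusted p = 1.56e-05). Kif2c, a kinesin that corrects faulty microtubule attachments, reached 7.23, 9.92 and 8.59 FPKM against 0.108, 0.169 and 0.0532 FPKM. The Let-7Tg values of Kif2c are 2, 3 and 1 reads, so its log2 fold change of 3.89 ± 0.20 (adjusted p = 1.32e-05) was held down by the 0.5 FPKM added. Bub1, a kinase of the spindle checkpoint, showed the same separation, with 9.23, 17.5 and 12.4 FPKM in Lin28bTg against 0.0509, 0.159 and 0.351 FPKM in Let-7Tg cells (log2 fold change 4.28 ± 0.24, adjusted p = 1.56e-05).

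Other spindle genes outside the list moved in the same direction. Kif18b, a kinesin that trims microtubule ends, rose by 3.22 ± 0.18 on the log2 scale, from 0.136 to 0.234 FPKM in Let-7Tg to 4.42 to 7.01 FPKM in Lin28bTg cells. Spag5, a spindle and kinetochore protein, rose by 3.53 ± 0.20, from 0.303 to 0.685 FPKM to 7.78 to 12.2 FPKM. Both had an adjusted p of 1.56e-05. Smc4, a condensin subunit, rose least among the called genes of the list, from 65.5 to 82.7 FPKM to 86.2 to 106 FPKM (log2 fold change 0.44 ± 0.14, adjusted p = 0.0354), and its call was lost without library 2 or 3 of either genotype and without the filter on low values.

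Of the 46 tested DNA replication genes, 41 were higher in Lin28bTg cells and none was lower, with a median log2 fold change of 0.923. Between 26 and 42 members were called over the alternatives. In the fit over all 27 libraries the median of this list was 1.03 in naive cells and −0.0169 in day 5 CTLs. Rrm2, the small subunit of the enzyme that makes deoxynucleotides, stood at 49.4, 85.8 and 83.7 FPKM in Lin28bTg cells, at 2.22, 2.6 and 3.66 FPKM in Let-7Tg cells and at 10.8, 6.93 and 13.2 FPKM in WT cells. Its log2 fold change was 4.45 ± 0.29 (adjusted p = 2.12e-05), the largest of the list, and its 3′ UTR holds the 8-base site printed above. Mcm10, which helps to start the replication fork, reached 32.9, 50.1 and 43.4 FPKM against 2.35, 1.94 and 4.72 FPKM (log2 fold change 3.67 ± 0.33, adjusted p = 8.49e-05). Cdc6, which loads the replicative helicase, reached 15.4, 26 and 24.2 FPKM against 0.836, 0.973 and 1.72 FPKM (3.74 ± 0.34, adjusted p = 8.65e-05). In all of these genes library 1 of Lin28bTg held the lowest of the 3 Lin28bTg values and still exceeded every Let-7Tg library.

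Pcna, the sliding clamp of the polymerases, differed less and stood at 443, 533 and 520 FPKM against 384, 303 and 404 FPKM (log2 fold change 0.47 ± 0.15, adjusted p = 0.0395), a call lost without library 2 or 3 of Lin28bTg, library 1 or 2 of Let-7Tg or library 1 of WT, and without the filter on low values. The 5 members that were not called were Cdt1, Pole2, Orc2, Rfc1 and Pold2, with log2 fold changes from 0.14 to 0.39, and they were named after their values were seen. Pclaf, a partner of the clamp that is not on the list, rose by 4.61 ± 0.27, from 0.35, 0.692 and 0.31 FPKM to 15, 28.8 and 25.7 FPKM (adjusted p = 1.59e-05).

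Genes of the G1 phase rose in part. Of 27 tested cyclins, CDKs and E2F factors, 19 were higher in Lin28bTg cells and none was lower, with a median of 0.658. E2f2, a transcription factor that activates replication genes, stood at 4.05, 5.51 and 5.64 FPKM against 0.195, 0.305 and 0.168 FPKM (log2 fold change 2.94 ± 0.17, adjusted p = 1.8e-05). Cdkn2d, an inhibitor of CDK4 and CDK6, also rose, from 4.02, 3.71 and 3.81 FPKM to 12.5, 12.2 and 12.9 FPKM (1.59 ± 0.10, adjusted p = 1.8e-05). Its kinase partner Cdk4, the most abundant member, stood at 363, 368 and 364 FPKM against 351, 332 and 379 FPKM, with a log2 fold change of 0.06 ± 0.09 (adjusted p = 0.667). The D cyclin Ccnd2, named after its value was seen, had a log2 fold change of 0.01 (adjusted p = 0.978) at a mean of 152 FPKM in both genotypes.

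**Figure D2:**
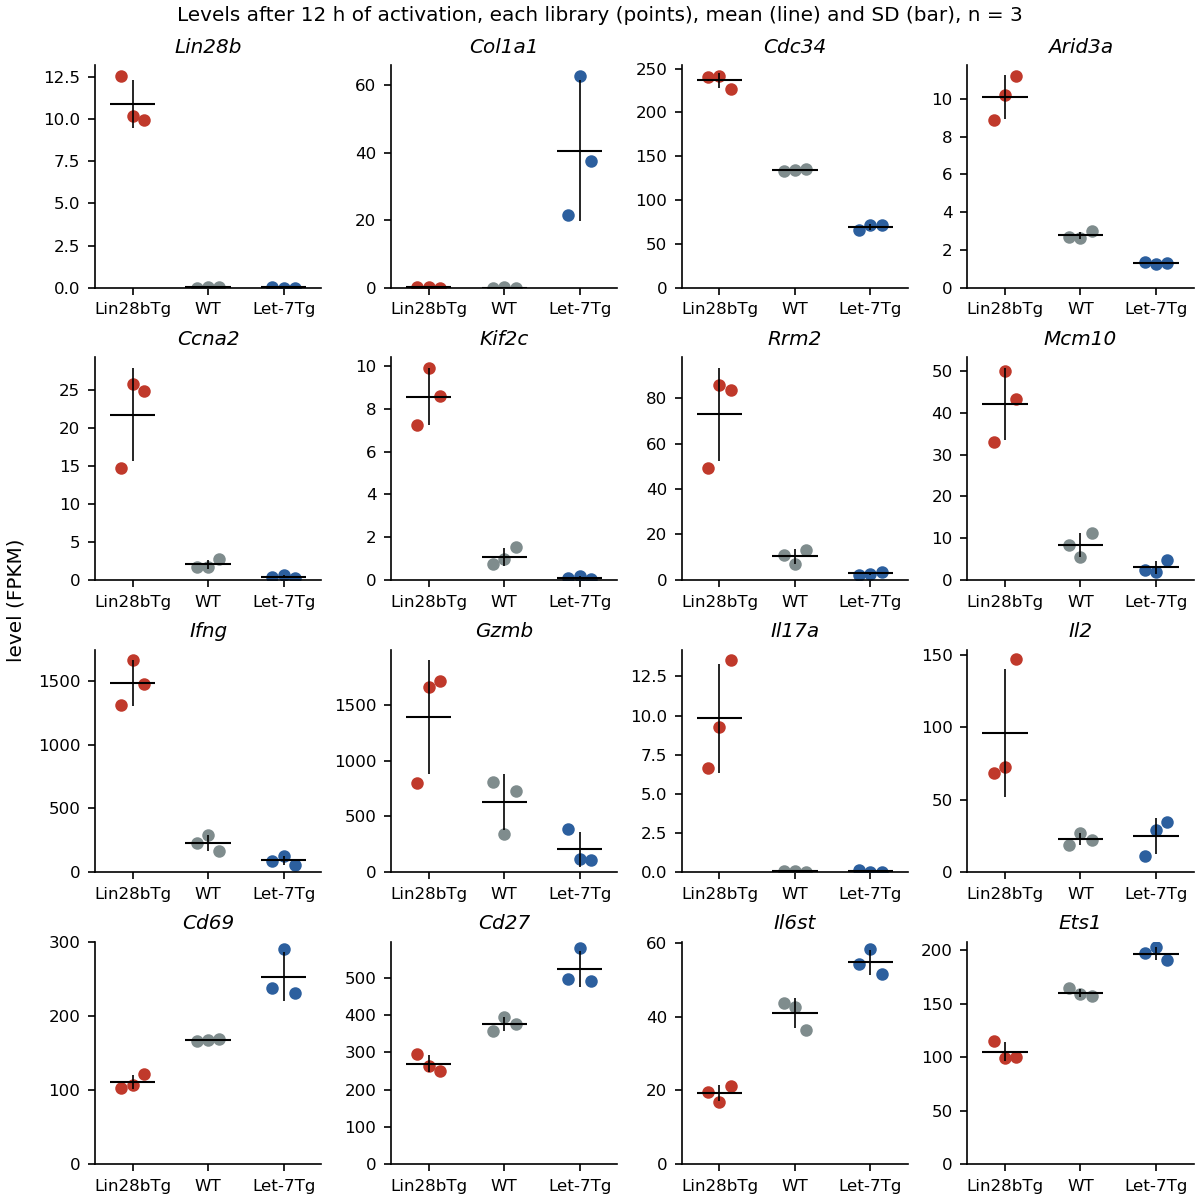
Levels in FPKM of 16 genes in each of the 9 libraries of the 12 h time. Points are libraries, the horizontal line is the mean and the vertical bar the SD of 3 libraries, and each panel has its own linear axis from 0. For the division genes Ccna2, Kif2c, Rrm2 and Mcm10 the Lin28bTg points lie above all others, and for Cd69, Cd27, Il6st and Ets1 the Let-7Tg points lie highest, with WT between.

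Promoter sequence was read for these lists, because their members moved together. RefSeq promoters, 250 bases before to 50 after the gene start, were found for 33 of the mitosis genes, 38 of the replication genes and 9313 of all tested genes. The letters searched on both strands were TTTGAA for the cell cycle homology region (CHR), CCAAT for the CCAAT box, and TTTGGCGC, TTTCCCGC and TTTCGCGC for E2F. TTTGAA was present in 23 mitosis promoters (69.7%), in 4 replication promoters (10.5%) and in 1109 of all tested promoters (11.9%). It stood together with a CCAAT box in 20 mitosis promoters (60.6%), against 5.12% of all. The E2F letters were present in 13 replication promoters (34.2%), in 3 mitosis promoters (9.09%) and in 3.83% of all. CCAAT alone was in 72.7% of mitosis, 63.2% of replication and 39.2% of all promoters. A match is a description of the letters only. The 3 promoters below show the arrangement, with matched letters of any of these motifs in capitals, on the strand of the gene.
Plk1, chr7:122159185-122159484, plus strand: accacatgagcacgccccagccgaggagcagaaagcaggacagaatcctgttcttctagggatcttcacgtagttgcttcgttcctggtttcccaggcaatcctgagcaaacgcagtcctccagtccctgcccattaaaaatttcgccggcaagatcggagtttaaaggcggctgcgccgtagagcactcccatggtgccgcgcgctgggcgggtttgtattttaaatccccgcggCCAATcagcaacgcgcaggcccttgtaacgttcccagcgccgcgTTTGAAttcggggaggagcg
Cdk1, chr10:69352863-69353162, minus strand: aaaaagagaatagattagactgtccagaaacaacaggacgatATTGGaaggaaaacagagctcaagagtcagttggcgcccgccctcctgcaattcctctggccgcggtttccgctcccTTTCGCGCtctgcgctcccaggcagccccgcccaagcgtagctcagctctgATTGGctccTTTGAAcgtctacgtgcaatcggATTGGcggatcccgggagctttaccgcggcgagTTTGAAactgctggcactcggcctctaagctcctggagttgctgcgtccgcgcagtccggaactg
Cdc6, chr11:98907901-98908200, plus strand: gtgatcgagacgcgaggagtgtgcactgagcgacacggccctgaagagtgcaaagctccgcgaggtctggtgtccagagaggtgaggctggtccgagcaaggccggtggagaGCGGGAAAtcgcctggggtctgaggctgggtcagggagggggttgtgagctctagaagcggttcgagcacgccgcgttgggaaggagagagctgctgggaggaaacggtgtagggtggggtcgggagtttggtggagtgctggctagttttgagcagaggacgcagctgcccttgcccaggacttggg

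Plk1, the polo kinase of mitotic entry, stood at 5.53, 8.39 and 7.04 FPKM in Lin28bTg and at 0.487, 0.536 and 0.704 FPKM in Let-7Tg cells (log2 fold change 2.79 ± 0.19, adjusted p = 2.6e-05). Cdk1, the kinase that drives mitosis, stood at 24.7, 44 and 36.3 FPKM against 1.56, 1.95 and 3.01 FPKM (3.74 ± 0.27, adjusted p = 3.28e-05). Both were chosen for display after their values were seen. Their WT levels, 0.805 to 1.3 FPKM for Plk1 and 4.84 to 7.76 FPKM for Cdk1, lay between the transgenic genotypes.

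Genes known as let-7 targets from other systems were mostly higher where Lin28b was expressed. Of 33 tested members of the list of classical targets, 24 were higher in Lin28bTg cells and 2 were lower, with a median of 0.73. By their 3′ UTR, 16 of the 33 hold an 8-base site, 11 hold a 7-base site only and 6 hold none in the transcript searched. The lower genes included the cytokine receptor gene Il6ra, at 3.25, 2.51 and 2.11 FPKM against 3.6, 5.88 and 4.88 FPKM. Il6ra has no site in the transcript searched, and its call was lost without library 2 or 3 of either genotype and without the filter on low values.

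Cdc34, a ubiquitin-conjugating enzyme that targets cell cycle inhibitors for destruction (chromosome 10, 79682195 to 79688398), had the tightest separation among the targets. Its level was 241, 242 and 227 FPKM in Lin28bTg, 65.4, 71.7 and 71.6 FPKM in Let-7Tg and 133, 134 and 136 FPKM in WT cells. The SDs of 8.3 and 3.59 FPKM were small beside this gap, and the log2 fold change was 1.77 ± 0.06 (adjusted p = 5.42e-07). The DNA-binding factor Arid3a was at 8.86, 10.2 and 11.2 FPKM against 1.35, 1.24 and 1.31 FPKM, with 2.66 to 2.98 FPKM in WT cells (log2 fold change 2.56 ± 0.13, adjusted p = 1.32e-05). Its relative Arid3b was at 29.9, 26.1 and 27.2 FPKM against 10.1, 11 and 8.93 FPKM (1.44 ± 0.08, adjusted p = 1.56e-05). For all 3 of these genes the order Lin28bTg, WT, Let-7Tg held in every library.

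Bcl2l1, which encodes the survival protein Bcl-xL, rose from 102, 84.9 and 92.5 FPKM in Let-7Tg to 250, 301 and 360 FPKM in Lin28bTg cells, with WT at 149 to 168 FPKM (log2 fold change 1.70 ± 0.14, adjusted p = 4.56e-05). Its 8-base site is printed above. Fas, the death receptor, whose 8-base site begins 4 bases into the 3′ UTR, stood at 18.5, 22 and 27.1 FPKM against 10.1, 13 and 8.38 FPKM (1.08 ± 0.20, adjusted p = 0.00346). Tgfbr1, a TGF-β receptor subunit, stood at 17.8, 17.4 and 18.4 FPKM against 9.96, 10.9 and 8.76 FPKM (0.84 ± 0.09, adjusted p = 0.000239). On the list of the BCL2 family and cell death, 7 of 28 tested genes were higher and 3 were lower, with a median of 0.0478 that changed sign under 2 of 19 alternatives.

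Of the 15 tested genes with 2 or more 8-base sites, 6 were higher, 1 was lower and 8 were not called. The 6 described here were chosen among called genes, so their direction is no result about such genes. The lower gene, Serac1, fell by 0.54 (adjusted p = 0.0339) and was named after its value was seen. Trim71, a repressor of messenger RNAs with 4 such sites, was barely detected, with 30, 32 and 62 reads in Lin28bTg and 2, 4 and 2 reads in Let-7Tg libraries (log2 fold change 0.55 ± 0.14, adjusted p = 0.0156, a call lost without library 3 of Lin28bTg). Nr6a1, an orphan nuclear receptor with 3 such sites and 5 sites of the 7-base CTACCTC kind, stood at 8.61, 9.22 and 11.8 FPKM against 2.89, 4.12 and 2.49 FPKM (1.52 ± 0.17, adjusted p = 0.000299). Zc3hav1l, a zinc finger gene with 2 sites, was at 3.8, 3.79 and 3.71 FPKM against 1.9, 1.81 and 1.58 FPKM (0.92 ± 0.13, adjusted p = 0.000888). Other called genes with 2 sites were Hif1an, an oxygen-dependent inhibitor of HIF (log2 fold change 0.40 ± 0.07), the methyltransferase gene Mettl6 (0.40 ± 0.08) and Ptafr, the receptor for platelet-activating factor (1.00 ± 0.25), whose call was lost without library 1 of Lin28bTg.

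Over all genes, calls shifted with the presence of a site. A 3′ UTR was found for 11188 tested genes, of which 17.4% were higher and 14.5% lower. Among the 9475 genes with no site, 15.9% were higher in Lin28bTg cells and 15.2% were lower. Among the 1350 genes with a 7-base site only, 24.6% were higher and 11.3% lower, and among the 363 with an 8-base site 30.6% were higher and 8.26% lower. The median log2 fold changes were −0.0155, 0.0685 and 0.141. The median of the genes with no site changed sign under 1 of the 6 alternatives run on these classes, while the other medians kept theirs.

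UTR length differs between the classes, with a median of 804 bases without a site, 2230 bases with a 7-base site and 2340 bases with an 8-base site. In 3′ UTRs under 500 bases, 42.1% of 19 genes with an 8-base site and 40.2% of 107 genes with a 7-base site were higher, against 16.5% of those with none. In 3′ UTRs of 2000 bases or more, 26.7% of 206 genes with an 8-base site were higher, 16.2% of 742 with a 7-base site and 14.4% of 1844 with none. The first of these groups holds under 20 genes. Most members of the cell cycle lists carry no site, 36 of 42 in the mitosis list and 43 of 46 in the replication list. The same holds for most genes, 9475 of the 11188 with a 3′ UTR having none.

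**Figure D3:**
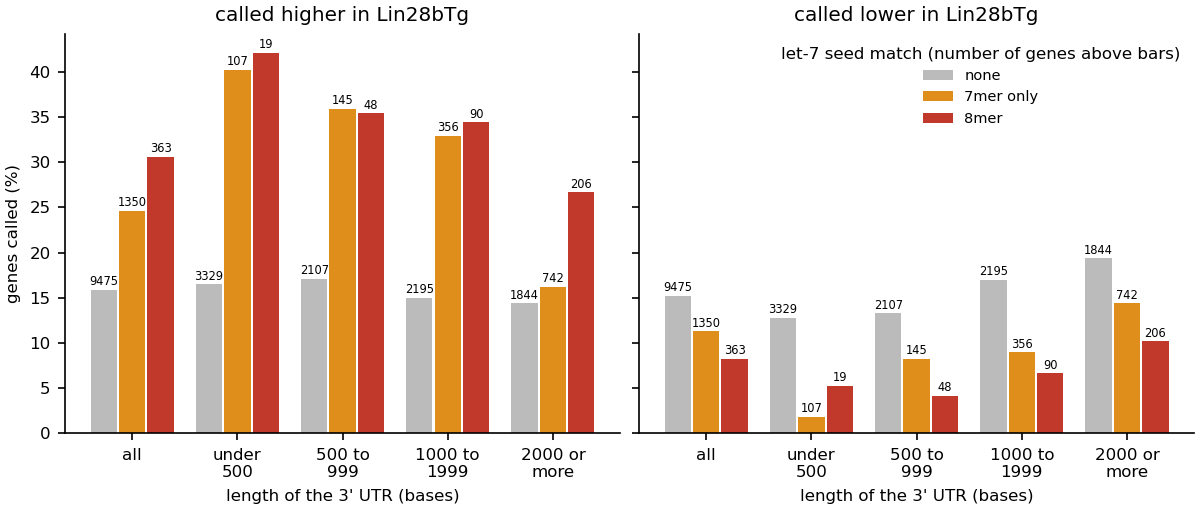
Percent of tested genes called higher (left) or lower (right) in Lin28bTg than in Let-7Tg cells after 12 h, by the let-7 seed match in the 3′ UTR (grey none, orange 7-base only, red 8-base) and by 3′ UTR length, with the number of genes above each bar. Over all lengths the share called higher is 15.9%, 24.6% and 30.6% and the share called lower 15.2%, 11.3% and 8.26%.

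The machinery that makes and uses microRNAs moved both ways. Of 21 tested genes, 6 were higher and 7 lower, with a median of 0.026 that changed sign under 8 of 19 alternatives. Apart from the Lin28b transgene, the tightest higher gene was Tarbp2, a partner of Dicer, at 99.7, 99.9 and 97.5 FPKM against 51.6, 51.7 and 50.6 FPKM (log2 fold change 0.95 ± 0.06, adjusted p = 2.12e-05). Prkra, the other double-stranded RNA-binding partner of Dicer, was lower, at 0.602, 0.56 and 0.503 FPKM against 1.63, 3.11 and 2.3 FPKM (fell by 1.39 on the log2 scale, SE 0.22, adjusted p = 0.00187). The silencing genes Tnrc6b and Ago3 fell by 1.11 and 0.83, with adjusted p of 0.000511 and 0.00131. Tnrc6b and Ago3 were highest in library 2 of Let-7Tg, at 10.8 and 27.7 FPKM, and every Let-7Tg library exceeded every Lin28bTg library.

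Of 22 tested effector molecules and cytokines, 14 were higher in Lin28bTg cells and none was lower, with a median of 1.84. Ifng, which encodes interferon-γ, was at 1310, 1666 and 1473 FPKM in Lin28bTg, at 90.5, 127 and 56.7 FPKM in Let-7Tg and at 227, 294 and 169 FPKM in WT cells. Every Lin28bTg library lay above every other library, with a log2 fold change of 4.09 ± 0.26 (adjusted p = 2.12e-05). Gzmb, granzyme B of the lytic granules, stood at 796, 1661 and 1710 FPKM against 386, 114 and 111 FPKM (2.96 ± 0.53, adjusted p = 0.0032). The lowest Lin28bTg value of Gzmb came from library 1, and WT libraries, at 811, 344 and 730 FPKM, overlapped it. Gzmc, granzyme C, was far less abundant at 29.8, 50.6 and 36.6 FPKM against 4.86, 4.28 and 1.73 FPKM (3.34 ± 0.35, adjusted p = 0.000222).

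Il2, the growth factor of T cells, stood at 68.6, 72.4 and 147 FPKM in Lin28bTg against 11, 28.9 and 34.8 FPKM in Let-7Tg cells (log2 fold change 2.00 ± 0.41, adjusted p = 0.00636). The WT values of 18.6 to 27.2 FPKM lay within the range of Let-7Tg. Il13, a cytokine of type 2 responses with an 8-base site, was read almost solely in Lin28bTg cells, with 52, 127 and 104 reads against 0, 2 and 0 reads in Let-7Tg and in WT cells alike (3.21 ± 0.25, adjusted p = 4.45e-05). Tnf, an inflammatory cytokine gene named after its value was seen, did not pass the test, with 141, 89.7 and 129 FPKM against 115, 229 and 122 FPKM (−0.32 ± 0.33, adjusted p = 0.498). Its values overlapped between the genotypes.

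The type 17 program, the cytokines and receptors of interleukin-17 producing cells, was higher in 9 of 13 tested genes and lower in none, with a median of 1.07. Il17a had 123, 184 and 272 reads in Lin28bTg libraries, or 6.67, 9.28 and 13.5 FPKM, and 2, 0 and 0 reads in Let-7Tg libraries (log2 fold change 4.22 ± 0.23, adjusted p = 1.56e-05). Il17f had 160, 225 and 456 reads against 4, 1 and 2 (4.86 ± 0.40, adjusted p = 5.09e-05), and Il22 had 107, 219 and 399 against 3, 2 and 0 (4.34 ± 0.40, adjusted p = 0.000101). In WT libraries Il17a had 1, 1 and 0 reads, so the Lin28bTg libraries alone carried more than a trace of it. Members that were not called included Rora (log2 fold change 0.40), Maf (0.32) and Il7r (0.30), named after their values were seen.

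Chemokines rose in 5 of 11 tested genes and fell in none, with a median of 0.94. Ccl9 stood at 119, 111 and 88.1 FPKM against 19.3, 24.9 and 26.6 FPKM (log2 fold change 2.15 ± 0.20, adjusted p = 9.9e-05). Ccl1, a ligand of CCR8, stood at 24.8, 22.4 and 9.57 FPKM against 0.465, 4.05 and 1.54 FPKM (3.13 ± 0.58, adjusted p = 0.00405). Cxcl2, which attracts neutrophils, was at 17, 20 and 28 reads against 0, 4 and 2 reads. Xcl1, which draws cross-presenting dendritic cells, was the most abundant, at 5141, 4561 and 3325 FPKM against 2005, 3254 and 2189 FPKM, and did not pass (0.83 ± 0.31, adjusted p = 0.0692).

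Receptors for such signals were also higher in part, 11 of 22 tested chemokine receptor, homing and integrin genes being higher and none lower, with a median of 0.662. Ccr8, the receptor of Ccl1, was at 3.02, 3.22 and 3.18 FPKM against 0.109, 0.737 and 0.268 FPKM (log2 fold change 2.14 ± 0.29, adjusted p = 0.000729). Ccr7, which guides T cells into lymph nodes, was also higher in Lin28bTg cells, at 358, 386 and 456 FPKM against 234, 138 and 113 FPKM (1.38 ± 0.26, adjusted p = 0.0042).

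Cytokine receptors split, with 10 of 26 tested genes higher and 4 lower and a median of 0.22. Il1rl1, the interleukin-33 receptor, was at 4.08, 3.68 and 2.56 FPKM against 0.151, 0.112 and 0.106 FPKM (log2 fold change 2.64 ± 0.16, adjusted p = 2.09e-05). Il18rap, a subunit of the interleukin-18 receptor, was at 11.6, 11.5 and 9.78 FPKM against 1.45, 2.99 and 1.11 FPKM (2.37 ± 0.23, adjusted p = 0.000117). Il12rb2, a subunit of the interleukin-12 receptor, was at 28, 38.1 and 69.9 FPKM against 20.2, 13.3 and 6.34 FPKM (1.78 ± 0.43, adjusted p = 0.0131), and Il4ra at 44.4, 43.5 and 45.7 FPKM against 31.1, 29.9 and 25.4 FPKM (0.64 ± 0.08, adjusted p = 0.000642).

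The lower receptors were Il6st, Il6ra, Tgfbr2 and Il2ra. Il6st, the signaling chain of the interleukin-6 family, fell from 54.2, 58.2 and 51.5 FPKM in Let-7Tg to 19.6, 16.9 and 21.1 FPKM in Lin28bTg cells, with WT at 36.3 to 43.8 FPKM (fell by 1.48 on the log2 scale, SE 0.09, adjusted p = 2.12e-05). Il6ra, described above, is the partner chain of the same receptor. Tgfbr2 was at 15.2, 13 and 14.2 FPKM against 19.1, 26 and 20.6 FPKM (fell by 0.59, adjusted p = 0.00273), while its partner Tgfbr1 was higher. Il2ra, the high-affinity chain of the interleukin-2 receptor, was at 211, 242 and 290 FPKM against 314, 389 and 301 FPKM (fell by 0.43, SE 0.13, adjusted p = 0.0312). Its WT values of 247, 204 and 228 FPKM lay below every Let-7Tg library and overlapped those of Lin28bTg. The call on Il2ra was lost without library 1 or 2 of either genotype, without the filter on low values and without the 3 libraries that stood apart.

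Of 23 tested JAK, STAT and SOCS genes, 10 were higher and 3 lower, with a median of 0.347. Stat5a, which carries interleukin-2 signals, stood at 169, 190 and 251 FPKM against 73.3, 76.7 and 63.9 FPKM, with WT at 102 to 119 FPKM (log2 fold change 1.50 ± 0.13, adjusted p = 7.36e-05). Its near relative Stat5b differed less, at 41.4, 44.8 and 56.3 FPKM against 32.4, 41.2 and 31.1 FPKM (0.45 ± 0.12, adjusted p = 0.0188), a call lost without library 3 of Lin28bTg or library 1 or 3 of Let-7Tg. Stat3 was at 209, 218 and 265 FPKM against 126, 124 and 98.7 FPKM (1.00 ± 0.11, adjusted p = 0.000297) and the kinase gene Jak3 at 57.1, 55.7 and 62.4 FPKM against 34.2, 37.4 and 35.8 FPKM (0.71 ± 0.08, adjusted p = 0.000299). The lower genes were the inhibitors Socs5, Socs6 and Pias1, which fell by 0.52, 0.48 and 0.33 with adjusted p of 0.0215, 0.0084 and 0.0428. The call on Socs5 was lost without library 2 of either genotype, that on Socs6 without the 3 libraries that stood apart, and that on Pias1 without any single library other than library 3 of Let-7Tg.

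Of 25 tested effector transcription factors, 12 were higher and 4 lower, with a median of 0.667. Rbpj, the DNA-binding partner of Notch, was at 113, 119 and 128 FPKM against 65.2, 52.4 and 56.7 FPKM (log2 fold change 1.05 ± 0.11, adjusted p = 0.000221), and the receptor gene Notch2 at 13.2, 14.3 and 17.3 FPKM against 8.83, 8.17 and 7.95 FPKM (0.81 ± 0.12, adjusted p = 0.00143). Bhlhe40, a repressor of Il10, was at 114, 145 and 179 FPKM against 57.9, 105 and 56.9 FPKM (1.04 ± 0.24, adjusted p = 0.0101), and Irf8 at 398, 495 and 443 FPKM against 250, 232 and 186 FPKM (1.01 ± 0.12, adjusted p = 0.000445). The lower ones were Ikzf3, Tox, Irf4 and Notch1. Ikzf3 was at 50.2, 39.7 and 50 FPKM against 93.5, 138 and 90.1 FPKM (fell by 1.16), Tox at 4.58, 3.81 and 3.31 FPKM against 6.07, 8.39 and 7.25 FPKM (fell by 0.80) and Irf4, which scales with the strength of T cell receptor signals, at 166, 168 and 198 FPKM against 294, 282 and 299 FPKM (fell by 0.71, adjusted p = 0.000512). Eomes, a factor of effector and memory cells, did not pass at 38.5, 36.4 and 31.1 FPKM against 28.9, 17.4 and 8 FPKM (1.13 ± 0.40, adjusted p = 0.0589). Notch1 was named after its value was seen.

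Myc, which drives growth after activation, was at 708, 672 and 713 FPKM against 531, 424 and 490 FPKM (log2 fold change 0.55 ± 0.10, adjusted p = 0.00409), with WT at 647 to 702 FPKM. Ezh2, the Polycomb methyltransferase, was at 86.4, 119 and 130 FPKM against 54.7, 54.3 and 53.2 FPKM (1.03 ± 0.16, adjusted p = 0.00156). These genes belong to the 14 genes that the study names at 12 h, all of which were called higher here, with a median of 1.05. The study also lists 18 let-7 targets at 12 h, and all 18 were higher, with a median of 1.29. Both sets were chosen by the study on these samples, so their direction is not independent evidence.

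Of 33 tested Polycomb and DNA methylation genes, 13 were higher and 5 lower, with a median of 0.0263. Phf19, a cofactor of the Ezh2 complex, was at 6.17, 7.46 and 5.46 FPKM against 0.682, 1.31 and 1.5 FPKM (log2 fold change 2.08 ± 0.20, adjusted p = 0.000138). Cbx2, a reader of its mark, was at 9.97, 11.9 and 10.5 FPKM against 2.68, 3.67 and 3.15 FPKM (1.64 ± 0.13, adjusted p = 5.07e-05), and the histone methyltransferase gene Suv39h1 at 29.1, 34.7 and 33.2 FPKM against 16.6, 13.2 and 15.6 FPKM (1.08 ± 0.12, adjusted p = 0.00033). Ezh1, the counterpart of Ezh2 in resting cells, moved the other way, at 21.9, 17.8 and 19.2 FPKM against 31.3, 43.5 and 34.8 FPKM (fell by 0.86, adjusted p = 0.000849). Cbx7 and Jarid2 fell by 0.65 and 0.69.

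**Figure D4:**
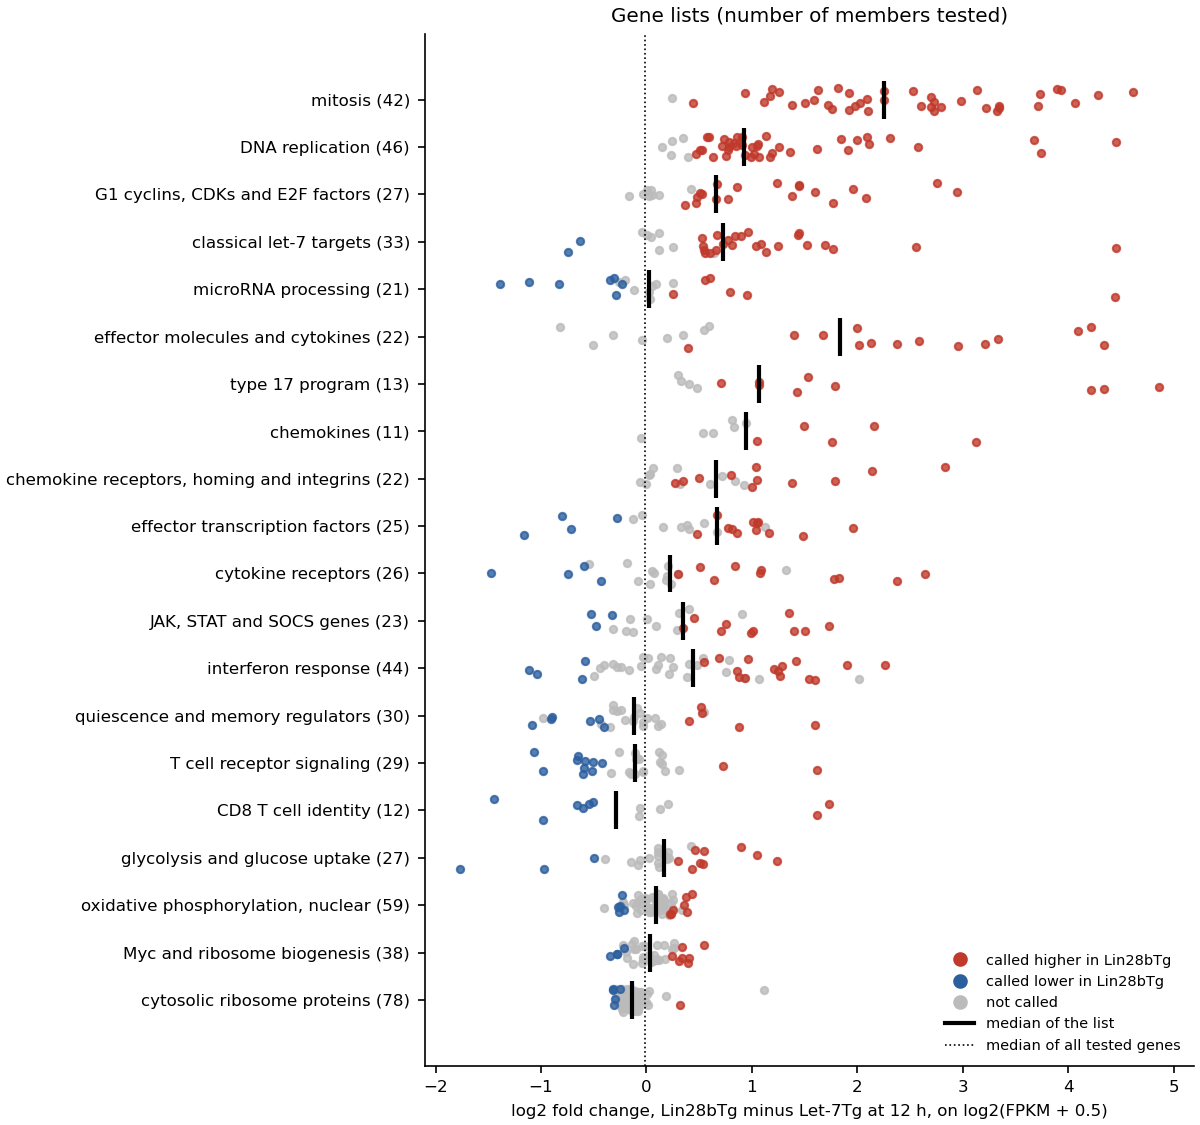
Log2 fold change, Lin28bTg minus Let-7Tg at 12 h, on log2(FPKM + 0.5), of every tested member of 20 gene lists, with the number of members in brackets. Red points were called higher, blue points lower and grey points were not called. Black bars mark list medians, which run from 2.25 for mitosis to −0.285 for CD8 T cell identity, and the dotted line marks the median of all tested genes, −0.0151.

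Some surface molecules of T cells were lower in Lin28bTg cells, Cd69 and Cd27 among them. Cd69, an early activation marker that retains T cells in lymph nodes (chromosome 6, 129267325 to 129275436), stood at 103, 108 and 122 FPKM in Lin28bTg, at 237, 291 and 231 FPKM in Let-7Tg and at 166, 167 and 169 FPKM in WT cells. It fell by 1.17 on the log2 scale (SE 0.08, adjusted p = 3e-05). Cd27, a costimulatory receptor that memory cells keep, stood at 297, 263 and 251 FPKM against 498, 581 and 493 FPKM, with WT at 357 to 394 FPKM (fell by 0.94, SE 0.07, adjusted p = 4.45e-05). In both genes the 3 genotypes did not overlap.

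Of 19 tested costimulatory receptors and activation markers, 7 were higher and 6 lower, with a median of −0.142. Cd44, the adhesion receptor that marks antigen experience, was higher, at 118, 130 and 142 FPKM against 50.9, 54 and 52.3 FPKM (log2 fold change 1.31 ± 0.09, adjusted p = 2.62e-05). The TNF receptor family gene Tnfrsf9 was at 611, 615 and 662 FPKM against 412, 422 and 282 FPKM (0.79 ± 0.14, adjusted p = 0.00281). Tnfsf8, the CD30 ligand, was lower, at 55.1, 46.5 and 47.8 FPKM against 137, 149 and 118 FPKM (fell by 1.41, SE 0.11, adjusted p = 4.56e-05). The adhesion receptor Cd2 was at 39.5, 41.9 and 35.4 FPKM against 118, 116 and 90.7 FPKM (fell by 1.45, SE 0.15, adjusted p = 0.000222).

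Of 29 tested genes of T cell receptor signaling, 2 were higher and 10 lower, with a median of −0.108. Zap70, the kinase recruited to the triggered receptor, stood at 472, 372 and 345 FPKM against 658, 899 and 808 FPKM (fell by 0.98, SE 0.13, adjusted p = 0.000607). Cd3e, a chain of the receptor complex, was at 165, 151 and 144 FPKM against 245, 243 and 245 FPKM (fell by 0.66, SE 0.08, adjusted p = 0.000353), and Plcg1, the phospholipase downstream, at 27.5, 26 and 25 FPKM against 35.9, 42 and 35.6 FPKM (fell by 0.51, SE 0.07, adjusted p = 0.000607). The exceptions were Cd247, the ζ chain of the complex, and Ubash3a, a phosphatase family member. Cd247 stood at 146, 134 and 123 FPKM against 41.3, 49.9 and 40 FPKM (log2 fold change 1.62 ± 0.12, adjusted p = 4.1e-05), so the chains of a single complex moved in opposite directions. The WT libraries, at 34.1, 28.1 and 23.6 FPKM of Cd247, lay below both transgenic genotypes.

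The list of CD8 T cell identity showed the same split, with 2 of 12 genes higher, Thy1 and Cd247, and 6 lower. The CD8 chain genes Cd8a and Cd8b1 were not among the called genes. Thy1 stood at 378, 430 and 416 FPKM against 156, 118 and 102 FPKM (log2 fold change 1.73 ± 0.21, adjusted p = 0.000445). Trac, the constant segment of the T cell receptor α chain, was at 937, 762 and 714 FPKM against 1391, 954 and 1219 FPKM (fell by 0.54, SE 0.16, adjusted p = 0.0299), a call lost without library 2 or 3 of Lin28bTg, without library 1 or 3 of Let-7Tg and under 2 other alternatives. The joining segments Trbj2-2, Traj20 and Traj3 also read lower, by 1.55, 2.75 and 2.67 on the log2 scale, but the last of these rest on 18 reads or fewer in each library and such segments are short and alike, so their values are uncertain.

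Of 26 tested immediate early genes of the T cell receptor response, 7 were higher and 7 lower, with a median of −0.168 that changed sign under 2 of 19 alternatives. The AP-1 genes Jund and Junb were higher, at 127, 113 and 104 FPKM against 52.8, 49.9 and 58 FPKM (log2 fold change 1.10 ± 0.10, adjusted p = 8.65e-05) and at 171, 166 and 229 FPKM against 95.4, 124 and 98 FPKM (0.84 ± 0.14, adjusted p = 0.00249). Dusp6, a phosphatase of ERK, was lower at 25.1, 21.7 and 17.4 FPKM against 55.8, 53.1 and 71.8 FPKM (fell by 1.46, SE 0.15, adjusted p = 0.000179). Nfatc1, a factor of calcium signals, was lower at 57.9, 47.4 and 47.6 FPKM against 84.3, 111 and 96.1 FPKM (fell by 0.91, SE 0.10, adjusted p = 0.000214).

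Of 30 tested quiescence and memory regulators, 5 were higher and 6 lower, with a median of −0.119. Over all tested genes 16.3% were higher and 14.5% lower. Ets1, a factor of T cell quiescence, stood at 115, 99.3 and 101 FPKM in Lin28bTg, at 197, 203 and 191 FPKM in Let-7Tg and at 157 to 165 FPKM in WT cells (fell by 0.90, SE 0.06, adjusted p = 3.08e-05). Id3 stood at 52.7, 47.7 and 43.5 FPKM against 90.4, 109 and 109 FPKM (fell by 1.08, SE 0.10, adjusted p = 0.000102), and Bcl11b, a keeper of T cell identity, at 18.3, 14.7 and 19.4 FPKM against 31.1, 33.4 and 35.2 FPKM (fell by 0.91, SE 0.13, adjusted p = 0.000975). Klf3 and Elf4 were higher, with log2 fold changes of 0.53 and 0.52. Tcf7, which encodes TCF-1 and was named after its value was seen, stood at 92.7, 77.6 and 100 FPKM against 114, 84.5 and 86.7 FPKM (−0.06 ± 0.15, adjusted p = 0.787).

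The GTPases Gimap4 and Gimap6, which support lymphocyte survival, fell by 1.11 and 1.17 (SE 0.08 for each). Gimap4 stood at 112, 102 and 97 FPKM against 242, 240 and 197 FPKM and Gimap6 at 104, 97.7 and 91.3 FPKM against 236, 236 and 194 FPKM. Pknox1, a homeobox factor, fell by 1.11 from 55.7 to 60.3 FPKM to 23.4 to 28.3 FPKM, Mettl1, a tRNA methyltransferase, by 0.79, and the long noncoding RNA AI504432 by 1.31. Trp53inp1, a target of p53, fell by 2.41 (SE 0.33, adjusted p = 0.000878) with 5.47, 4.55 and 4.27 FPKM against 18.5, 56.4 and 20 FPKM, and the peptide transporter Slc15a2 by 2.74 (SE 0.85, adjusted p = 0.0358) with 3.75, 1.23 and 9.52 FPKM against 16.6, 65.2 and 19.5 FPKM. In both of these library 2 of Let-7Tg was far above the rest. The call on Slc15a2 was lost without that library, without library 3 of Let-7Tg, without library 1 or 2 of Lin28bTg and without the 3 libraries that stood apart. Eif3j2, Gm4737 and Pcna-ps2, which read lower in Lin28bTg cells, share reads with near copies elsewhere in the genome and are uncertain, and library 1 of Lin28bTg held 18.3 FPKM of Gm4737 against 0.681 and 0.897 FPKM in the other two.

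Of 14 tested inhibitory receptors and ligands, 1 was higher and 2 lower, with a median of 0.225. Entpd1 was higher, on 21, 18 and 14 reads against 7, 7 and 3, a call lost without library 1 or 2 of Lin28bTg or library 3 of Let-7Tg. Cd274, which encodes PD-L1, was lower at 39.8, 37.4 and 32.3 FPKM against 72.1, 116 and 75.3 FPKM (fell by 1.22, SE 0.20, adjusted p = 0.00216), and Lair1 fell by 1.20, a call lost without library 2 or 3 of Lin28bTg. Lag3, the most abundant, stood at 149, 146 and 141 FPKM against 134, 367 and 328 FPKM and did not pass (adjusted p = 0.0884). Of 13 tested natural killer lectin receptors, 5 were higher and none lower, with a median of 0.61. Klrc1, which encodes the inhibitory receptor NKG2A, stood at 77.3, 81.2 and 46.7 FPKM against 13.2, 10.1 and 6.07 FPKM (log2 fold change 2.77 ± 0.27, adjusted p = 0.000137), while its partner Klrd1 had a log2 fold change of −0.19 (adjusted p = 0.53).

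Galectins, S100 proteins and annexins were higher in 8 of 20 tested genes and lower in 1, with a median of 0.639. Lgals1, galectin-1, stood at 65.9, 87.2 and 69.8 FPKM against 17, 12.5 and 18.1 FPKM (log2 fold change 2.21 ± 0.19, adjusted p = 6.09e-05), and Anxa2, annexin A2, at 44.7, 62.5 and 42.3 FPKM against 10.1, 18.6 and 8.6 FPKM (2.03 ± 0.25, adjusted p = 0.000527). The lower gene was S100a11, at 81.7, 80.7 and 58.4 FPKM against 96.4, 99.9 and 92.6 FPKM (fell by 0.39, SE 0.11, adjusted p = 0.029), a call lost without library 1 or 3 of Let-7Tg.

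Of 44 tested interferon response genes, 15 were higher and 4 lower, with a median of 0.444. The higher genes included antiviral genes of the type I response. Oas3, an RNA sensor, was at 7.18, 7.64 and 7.27 FPKM against 1.88, 2.68 and 0.766 FPKM (log2 fold change 1.90 ± 0.27, adjusted p = 0.000986), and Rsad2, which encodes viperin, at 1.18, 0.697 and 0.959 FPKM against 0.0676, 0.258 and 0 FPKM (1.26 ± 0.19, adjusted p = 0.0012). All 4 lower genes, Irf1, Gbp2, Gbp4 and Iigp1, are known to respond to interferon-γ, whose own gene was higher in Lin28bTg cells. Irf1 was at 90.5, 93.9 and 88.7 FPKM against 136, 179 and 108 FPKM (fell by 0.59, SE 0.14, adjusted p = 0.0111), and Iigp1 and Gbp4 fell by 1.11 and 1.03. Library 2 of Let-7Tg held the highest values of Irf1, Iigp1 and Gbp4, the call on Iigp1 was lost without the 3 libraries that stood apart and that on Gbp4 without any single transgenic library other than library 3 of Let-7Tg, and Gbp2 was named after its value was seen.

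Growth and metabolism differed less than division. Of 38 tested Myc and ribosome biogenesis genes, 7 were higher and 4 lower, with a median of 0.0335 that changed sign under 2 of 19 alternatives. Npm1, the most abundant of them and a chaperone of ribosome assembly, stood at 3097, 3391 and 3425 FPKM against 3286, 2382 and 3226 FPKM (log2 fold change 0.18 ± 0.16, adjusted p = 0.425). Translation initiation genes were higher in 8 of 38 and lower in 1, with a median of 0.0854. Cap-binding Eif4e2 was at 98.4, 92.9 and 96.7 FPKM against 63.6, 54.9 and 58.1 FPKM (0.71 ± 0.08, adjusted p = 0.000234).

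Cytosolic ribosomal proteins were near equal in level, with 1 of 78 higher, 5 lower and a median of −0.14. The number called lower was 46 without library 2 of Let-7Tg, 21 without scaling between libraries and 35 without the 3 libraries that stood apart. Rplp0 was at 4561, 4385 and 4283 FPKM against 4576, 4305 and 5005 FPKM. Mitochondrial ribosomal proteins were higher in 7 of 76 and lower in 4, and nuclear oxidative phosphorylation genes in 7 of 59 and lower in 5, with medians of 0.0961 and 0.0943. These shares lie below those of all tested genes.

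Of 27 tested glycolysis genes, 9 were higher and 3 lower, with a median of 0.172. Hk2, the inducible hexokinase and a known let-7 target, was at 109, 118 and 132 FPKM against 73.2, 58.7 and 62.3 FPKM (log2 fold change 0.89 ± 0.11, adjusted p = 0.000482), and Slc16a3, a lactate exporter, at 10.6, 11.7 and 9.13 FPKM against 3.63, 5.13 and 3.85 FPKM (1.24 ± 0.15, adjusted p = 0.000453). Ldhb, the lactate dehydrogenase subunit of oxidative cells, was lower at 4.4, 4.78 and 2.76 FPKM against 15.1, 12.1 and 16.9 FPKM (fell by 1.77, SE 0.21, adjusted p = 0.000361). The kinases Pdk1 and Pfkfb4 fell by 0.50 and 0.97.

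Of 37 tested PI3K, Akt and mTOR genes, 9 were higher and 7 lower, with a median of 0.0533. Akt1 was at 264, 271 and 279 FPKM against 185, 174 and 190 FPKM (log2 fold change 0.58 ± 0.07, adjusted p = 0.000527), while the catalytic subunit gene Pik3ca was lower at 9.97, 9.48 and 9.99 FPKM against 14.6, 15.4 and 14.1 FPKM (fell by 0.55, SE 0.07, adjusted p = 0.000728). Phlpp1, a phosphatase that turns Akt off, was higher at 30.7, 27.7 and 34.9 FPKM against 12.1, 13.2 and 10.9 FPKM (1.34 ± 0.10, adjusted p = 4.52e-05). Activators and inhibitors of the pathway thus appeared on both sides. Calls also fell on both sides over all tested genes, of which 16.3% were higher and 14.5% lower.

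For genes of metabolic supply, counts are to be read against 16.3% higher and 14.5% lower over all tested genes. The number higher and lower was 4 and 0 of 20 aminoacyl tRNA synthetases, 7 and 0 of 32 amino acid and one-carbon genes, 2 and 0 of 25 cholesterol synthesis genes, 3 and 1 of 14 fatty acid synthesis genes, 4 and 0 of 28 unfolded protein response genes and 3 and 1 of 27 antioxidant genes. The transferrin receptor gene Tfrc, at 371, 386 and 391 FPKM against 244, 274 and 249 FPKM (log2 fold change 0.59 ± 0.07, adjusted p = 0.000318), and the amino acid enzyme gene Cth, at 3.48, 8.55 and 8 FPKM against 0.597, 0.93 and 1.58 FPKM (2.19 ± 0.33, adjusted p = 0.00146), were among the higher genes. The 2 cholesterol genes, Dhcr7 and Acat2, lost their calls without library 2 or 3 of Lin28bTg or library 1 or 2 of Let-7Tg.

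The same genotypes were measured in naive cells and in day 5 CTLs, so the genotype difference at 12 h was set against those. In a fit over all 27 libraries and 14453 genes, 3569 genes (24.7%) were called between Lin28bTg and Let-7Tg cells at 12 h, 5469 (37.8%) in naive cells and 4085 (28.3%) in day 5 CTLs. The genotype difference itself changed between 12 h and naive cells in 1935 genes (13.4%), 835 of them more positive at 12 h and 1100 more negative. It changed between 12 h and day 5 in 3014 genes (20.9%), 1635 more positive at 12 h and 1379 more negative. The share more positive rose from 54.2% to 68.5% when libraries were not scaled. It was 50% with a replicate block and 50.3% among genes with a mean of at least 1 FPKM. Day 5 CTLs were made with irradiated splenocytes, soluble anti-CD3 and later IL-2 (100 U/mL), so stage and stimulus cannot be told apart.

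Some genes changed sides. Of the genes whose difference changed, 112 were called in opposite directions in naive and 12 h cells and 288 in 12 h cells and CTLs. Jade2, a histone acetylation cofactor and ubiquitin ligase, stood at 26.2, 21.5 and 23.3 FPKM in naive Lin28bTg cells against 43, 42.1 and 42.5 FPKM in naive Let-7Tg cells. After 12 h its order was the reverse, at 33.5, 38.2 and 36.3 FPKM against 17.2, 18.1 and 15.8 FPKM, and on day 5 it was again lower in Lin28bTg cells, at 7.19, 7.59 and 7.51 FPKM against 13.4, 15.1 and 13.8 FPKM. The difference of differences of Jade2 was 1.93 against naive cells (adjusted p = 3.54e-09) and 1.83 against day 5 (adjusted p = 2.36e-09).

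E2f2 and Ccr7 reversed after 12 h. E2f2 was higher in naive Lin28bTg cells, at 24.1 to 34.1 FPKM against 2.8 to 3.88 FPKM, and higher at 12 h, but lower in Lin28bTg CTLs, at 60, 36.3 and 44.8 FPKM against 86.5, 71.1 and 71.7 FPKM. Ccr7 was nearly lost from Lin28bTg CTLs, at 3.02, 2.69 and 1.98 FPKM against 54.7, 40.9 and 65.1 FPKM, so that its difference fell from 1.39 at 12 h to −4.01 on day 5. Jarid2, a Polycomb cofactor, went the other way, lower in Lin28bTg cells at 12 h and higher on day 5, at 74.5, 68.8 and 77.6 FPKM against 35.9, 30.6 and 27.4 FPKM.

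In naive cells the sign differed for Smc4, Sytl3 and Rab43. Smc4 was at 92, 86.9 and 110 FPKM in naive Lin28bTg against 244, 273 and 256 FPKM in naive Let-7Tg cells, a gap in the direction opposite to that at 12 h. Sytl3, a synaptotagmin-like protein of vesicle traffic, was at 36.2, 28.1 and 27.9 FPKM against 47, 36 and 38.7 FPKM in naive cells and at 83.3, 92.6 and 126 FPKM against 36, 35.1 and 29.5 FPKM at 12 h. Rab43, a GTPase of vesicle traffic, was higher in naive Lin28bTg cells, at 57.4, 89 and 69.2 FPKM against 47.1, 37.7 and 39 FPKM, and lower at 12 h, at 40.3, 32.7 and 32.6 FPKM against 50.7, 66.8 and 61.1 FPKM.

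Stat5a, Il2 and Ifng had a more positive difference at 12 h than in naive cells, a call lost for Ifng without library 3 of Let-7Tg or with 0.1 FPKM added, and for Il2 with 0.1 FPKM added or with the 12 libraries of both genotypes and stages alone. In naive cells Stat5a was at 42.5, 38.8 and 40.9 FPKM in Lin28bTg and 44.7, 41.6 and 50.3 FPKM in Let-7Tg cells, and in CTLs at 19.2 to 20.7 FPKM against 24.4 to 29.1 FPKM, so its difference of differences was 1.69 and 1.76. Il2 was at 0.408 FPKM or less in naive cells and CTLs of both genotypes. Ifng was at 1.77, 3.86 and 2.33 FPKM in naive Lin28bTg cells and at 3.74, 15.7 and 4.59 FPKM in Lin28bTg CTLs, against 1310 to 1666 FPKM at 12 h. Against day 5, Gzmc was the opposite case. Its log2 fold change was 1.69 in naive cells (not called), 3.36 at 12 h and 7.14 in CTLs, where Lin28bTg cells held 743, 3018 and 1297 FPKM.

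**Figure D5:**
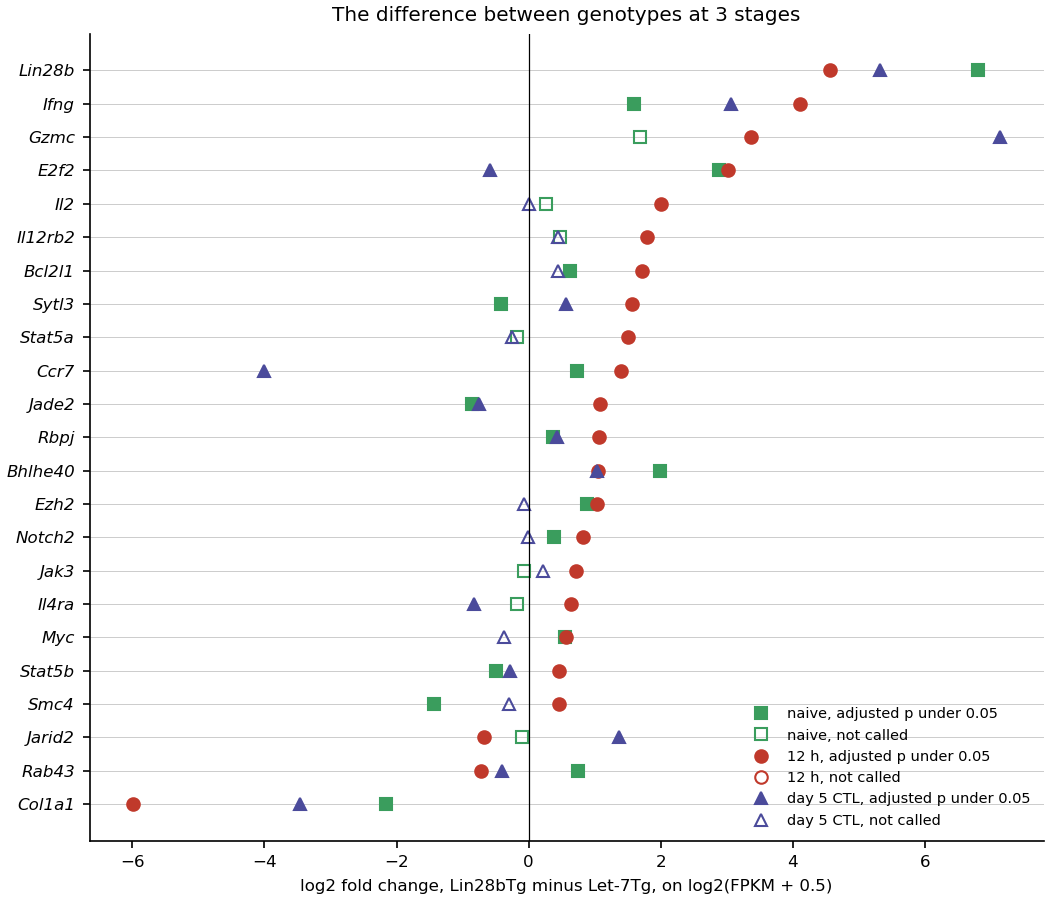
Log2 fold change, Lin28bTg minus Let-7Tg, on log2(FPKM + 0.5), of 23 genes in naive cells (green squares), after 12 h (red circles) and in day 5 CTLs (blue triangles), from the fit over 27 libraries. Filled symbols have an adjusted p under 0.05. Jade2 is positive at 12 h only, and Ccr7 goes from 1.39 at 12 h to −4.01 on day 5.

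Genes grouped by let-7 site were also followed over the stages, with no test of the differences between stages. In genes with an 8-base site the median log2 fold change was 0.0573 in naive cells, 0.153 at 12 h and 0.161 in day 5 CTLs, in genes with a 7-base site only it was 0.0191, 0.0783 and 0.0819, and in genes with no site it was −0.0467, −0.00618 and 0.0222.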

How the data were processed

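RNA sequencing libraries of 27 samples were used as deposited. The authors aligned reads to GRCm38 (mm10), with TopHat2 2.0.9 and Bowtie2 2.0.6 among the tools in the submitters' processing notes, counted them with HTSeq 0.6.1 and deposited FPKM values per gene; the annotation release is not given in the sources used here. The authors' own DESeq2 fold changes and p-values in the same tables were not used. Of 462839 FPKM values above 0, 100% were whole reads within 0.01 reads once gene length and depth were recovered. Genes with 10 reads at median depth in 3 libraries and 15 reads in all were kept. FPKM were scaled between libraries by trimmed means (trims of 30% and 5%), 0.5 FPKM was added, and log2 values were tested with limma 3.58.1 (R 4.3.3; intensity trend, two-sided) over the 9 libraries of the 12 h time, or over 27 for stages, with Benjamini-Hochberg adjustment and a threshold of 0.05. The code was tested on simulated data. Gene positions are from GENCODE M21, which held 34490 of 35275 identifiers. Members and lists were chosen with earlier results of these data known. Named genes were the transgene checks, the 12 with the smallest adjusted p and the 8 with the largest fold in each direction, the 14 the study names, the top 3 of each list in each direction with its most abundant member, genes with opposite signs between stages and the 6 with most 8-base sites among called genes. Some genes of the lists are counted but not reported here by name.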

Additional observations from a re-analysis of the deposited data

Results flagged for a closer look

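Only the transgene checks, the genes the study names and the genes chosen for opposite signs between stages were listed here. For 22 of them the difference between Lin28bTg and Let-7Tg cells itself differed between 12 h and another stage, by the interaction term of limma over all 27 libraries. Other genes named in the text differed too and are not listed, among them Ccna2 (4.7 against day 5) and Il17a (4.32 against naive cells). The values here are differences of log2 fold changes, 12 h minus the other stage. Stage and stimulus cannot be told apart, and the causes were not tested.

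Against naive cells, the difference was more positive at 12 h for Ifng (2.51), Sytl3 (1.99), Jade2 (1.93), Smc4 (1.9), Il2 (1.74), Stat5a (1.69), Il12rb2 (1.32), Bcl2l1 (1.08), Stat5b (0.961), Il4ra (0.822), Jak3 (0.788) and Rbpj (0.699). It was more negative for Col1a1 (−3.83), Lin28b (−2.25), Rab43 (−1.48) and Jarid2 (−0.571). Of 13 alternatives, the call was lost in 10 for Il12rb2, in 2 each for Ifng (without library 3 of Let-7Tg and with 0.1 FPKM added) and Il2, and in 1 for Bcl2l1 (without library 3 of Lin28bTg).

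Against day 5 CTLs, the difference was more positive at 12 h for Ccr7 (5.4), E2f2 (3.6), Il2 (2), Jade2 (1.83), Stat5a (1.76), Il4ra (1.47), Il12rb2 (1.35), Bcl2l1 (1.27), Ezh2 (1.11), Sytl3 (1.01), Myc (0.931), Notch2 (0.827), Smc4 (0.747), Stat5b (0.746) and Rbpj (0.635). It was more negative for Gzmc (−3.78), Col1a1 (−2.53), Jarid2 (−2.04) and Lin28b (−0.764). The call was lost in 3 alternatives for Il12rb2 (library 3 of either genotype among them), in 2 for Lin28b and in 2 for Rbpj (without library 3 of Lin28bTg or library 2 of Let-7Tg).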

How the results depend on the processing

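The count of 3775 genes between Lin28bTg and Let-7Tg cells lay between 3065 without the filter on low values and 3878 with voom over the settings that kept all libraries of both genotypes. Leaving out 1 library gave 2265 (without library 2 of Lin28bTg) to 3729 (without library 2 of WT), with 2362 without library 3 of Lin28bTg. With a replicate block the counts were 3667 at 12 h, 2651 for the difference from naive cells and 3933 for that from day 5. Deviations of same-numbered Lin28bTg and Let-7Tg libraries of the 12 h time correlated at −0.167, −0.128 and 0.0721. WT libraries and the other stages were not checked in this way, so whether the numbers mark a shared batch there is not known. Over all settings the count for the difference from naive cells ranged from 1291 to 2651. That for the difference from day 5 ranged from 2497 to 3933. No named gene changed direction with its call, and at most 37 of 211 calls on named genes were lost under an alternative. The medians of small size that changed sign are given with their lists, besides antioxidant genes (3 of 19 alternatives), translation initiation (1) and cholesterol synthesis (1). Genes under about 0.3 FPKM rest on few reads.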
